A study of Mus musculus with 240 samples.

Results

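The obesity response of gonadal adipose tissue was compared between a diabetes-prone and a diabetes-resistant mouse strain at 10 weeks of age, on 20 of the 240 arrays of the series. The arrays were chosen by tissue and age, with 5 male mice in each of 4 groups: BTBRob mice, BTBR lean mice, B6ob mice and B6 lean mice. The ob mice lack working leptin, the hormone that signals fat stores to the brain, through the ob allele of its gene Lep. What alleles of Lep the lean mice carry is not given in the sources used here, and the labels name no treatment. Each array of 2 colours set the RNA of 1 mouse against a pool made from 20 mice of its own strain and tissue. The labels call the pool of BTBR adipose tissue a control pool of BTBRob, so that its make-up is unclear.

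Values are log2 ratios of mouse over pool. Obesity effects are differences of ob and lean mice of the same strain. The strain difference is the BTBR obesity effect minus the B6 obesity effect, so that both pools cancel and a gene "higher in BTBR" differs in its response to obesity, not in level. Values after ± are standard errors (SE) of the fit with n = 5 mice a group, unless SD is written. A gene rose, fell or was higher or lower where the Benjamini-Hochberg adjusted p of limma was under 0.05 over 19896 genes. Which way the deposited ratio runs is not stated in the labels, so directions are likely ones: against a pool of the same mice a mouse over pool log ratio averages below 0, as it did for 96.5% of the 200 most variable probes in BTBR adipose arrays and 93.5% in B6 adipose arrays. Some arrays against 1 pool correlated clearly below 0 over all genes (lowest r = -0.432 within BTBR lean mice). Over all pairs of adipose arrays, across both pools, the lowest r was -0.635. Should the ratio run the other way, rises below are falls of equal size and higher counts are lower ones. Nothing says that mice came from separate cages or litters, and the number of arrays limits the precision.

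As background, white adipose tissue stores triglyceride in adipocytes and secretes hormones such as leptin and adiponectin. In obesity adipocytes enlarge, macrophages gather around dying adipocytes, and matrix and vessels are remodelled. Adipocytes make fatty acids through enzymes such as fatty acid synthase and release them through lipases, and both pathways respond to insulin.

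Arrays that stand apart come first; gonadal fat lies against the testis and epididymis. The mean of 7 testis markers was -0.21, 0.98 and 2.55 in BTBR lean mice 31, 32 and 33 and -0.57, 1.92 and 3.10 in B6 lean mice 24, 20 and 23. In the ob mice it lay between -4.77 and -2.36 for BTBR and between -4.01 and -1.57 for B6. Epididymis markers were high in BTBR lean mouse 32, B6ob mouse 9 and B6 lean mouse 24 (1.88, 0.42 and 1.41), and B cell markers in B6 lean mouse 22 (2.02). B6 lean mouse 24 also carried more lipid synthesis transcripts than the other B6 lean mice. Correlations between mice of a group ran from 0.733 to 0.904 in BTBRob, from -0.432 to 0.86 in BTBR lean, from 0.582 to 0.876 in B6ob and from -0.038 to 0.788 in B6 lean mice. Results are therefore also given without the 6 lean arrays named for testis transcripts and the 2 such arrays at 4 weeks. The other setting takes the testis, epididymis and B cell means as covariates. Both settings were chosen after seeing the data. The first leaves 2 mice in each lean group at 10 weeks, BTBR lean mice 26 and 30 and B6 lean mice 22 and 48. Mouse 22 is the one with high B cell markers. A call can end in that setting through fewer mice alone, so it is no clean check on testis transcripts.

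**Figure D1:**
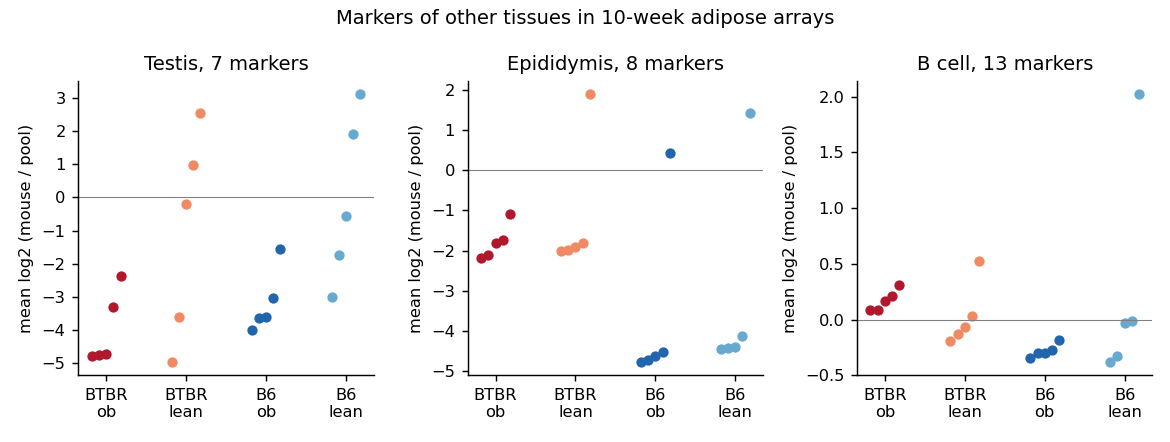
Mean log2 ratio (mouse / pool) of 7 testis, 8 epididymis and 13 B cell markers in each 10-week adipose array, with 1 point a mouse sorted by value within BTBR ob, BTBR lean, B6 ob and B6 lean. The lean groups spread widely on the testis markers, up to 2.55 in BTBR lean and 3.10 in B6 lean mice, while all ob mice lie below -1.5.

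The tissue and the obesity labels were checked on adipocyte genes. Lep, whose transcript is known to rise in fat of ob mice, stood at 0.85, 1.0, 1.0, 0.58 and 0.11 in BTBRob, -1.26, -1.45, -1.99, -1.66 and -1.36 in BTBR lean, 0.75, 0.97, 0.30, 0.83 and 0.99 in B6ob and -1.55, -2.08, -1.47, -1.76 and -1.15 in B6 lean mice. The ob mice lay above the lean mice in both strains without overlap. Lep rose by 2.25 ± 0.23 in BTBR and 2.37 ± 0.23 in B6, with a strain difference of -0.12 ± 0.33 that did not pass (adjusted p = 0.85). Cfd, the secreted factor adipsin, fell by 4.31 and 3.44 on the log2 scale in BTBR and B6, and Adipoq, the gene of adiponectin, fell by 1.01 and 1.17. Neither differed between the strains past the threshold (adjusted p = 0.094 and 0.63), but Cfd did with the covariates (-1.02, adjusted p = 0.041) and with the 10-week arrays alone (-0.87, adjusted p = 0.024). In bulk tissue fewer cells of a type and less RNA per cell cannot be told apart, here and for every cell type below. Of 20 adipocyte identity genes, 14 fell and 1 rose in BTBR and 13 fell and 1 rose in B6, against 21.4% of all genes that fell and 22.7% that rose in BTBR and 18.3% and 23.4% in B6. Of that list Nr1h3, a sterol-sensing nuclear receptor, alone differed between the strains (-0.35, adjusted p = 0.048), a call lost without any 1 of 15 mice and kept only without BTBRob mouse 8, 9 or 10, BTBR lean mouse 33 or B6 lean mouse 20. The lipid droplet coat gene Plin1 (0.41 ± 0.16, adjusted p = 0.092) and the adipocyte regulator Pparg (-0.06 ± 0.16, adjusted p = 0.86) did not pass. Plin1 passed with the covariates (0.54, adjusted p = 0.011), with array weights (0.49, adjusted p = 0.0044), with arrays scaled to 1 spread (0.50, adjusted p = 0.047) and without BTBRob mouse 10 or B6 lean mouse 22.

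Against this shared response, 1374 genes (6.91% of those tested) were higher in BTBR by the strain difference and 1196 (6.01%) were lower. BTBR obesity changed 8760 genes, of which 4511 rose, and B6 obesity changed 8298, of which 4652 rose. The share of the BTBR rises that also rose in B6 was 63.8%, and of the B6 rises that also rose in BTBR 61.9%. For falls these shares were 45.4% and 52.9%. Across genes the BTBR and B6 effects correlated at r = 0.705, a description over genes, which are not replicates. Of the genes higher in BTBR, 429 changed in BTBR alone, 440 in B6 alone, 398 in both strains in the same direction and 90 in opposite directions. Of those lower in BTBR, 349 changed in BTBR alone, 470 in B6 alone, 231 in both in the same direction and 131 in opposite directions. Here "alone" means that the other strain's effect did not pass. The ob and lean mice did not overlap for 4870 genes (24.5%) in BTBR and 6871 (34.5%) in B6. Without the lean arrays with testis transcripts 740 genes were higher and 1074 lower, and with the covariates 1789 and 1790. The list counts below are to be read beside these shares and totals over all genes, each in its own setting.

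**Figure D2:**
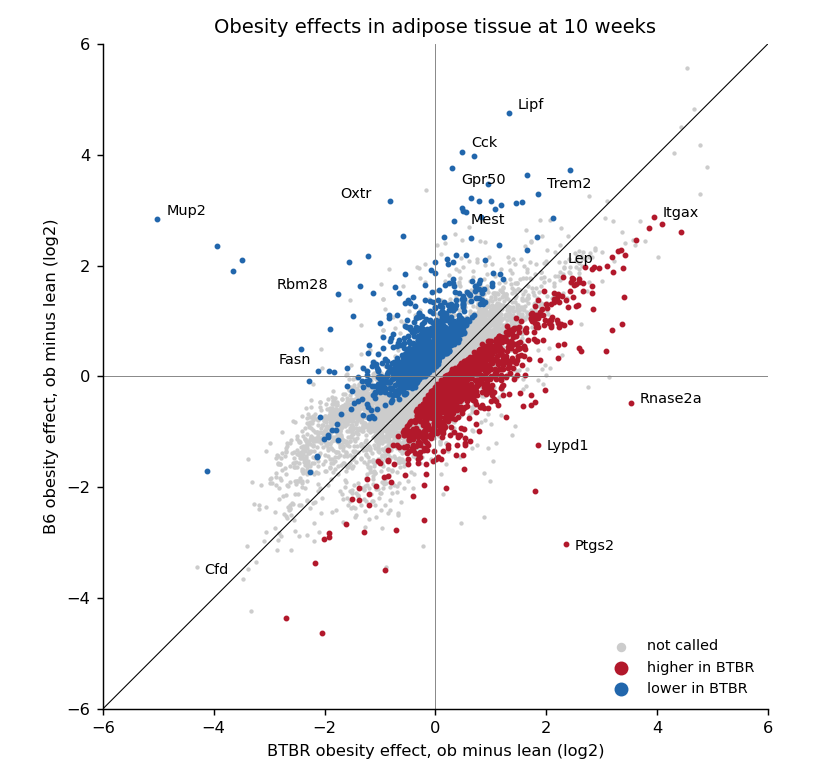
Obesity effect of 19896 genes in adipose tissue at 10 weeks, BTBR on the x axis and B6 on the y axis (log2, ob minus lean), with red for genes higher in BTBR, blue for genes lower in BTBR by the strain difference and grey for the rest. Lep and Cfd lie near the diagonal of equal effects, Cck, Gpr50 and Lipf high above it, and Rnase2a, Lypd1 and Ptgs2 far below it.

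Among the genes lowest in BTBR, several rose little or did not pass in fat of BTBRob mice and rose strongly in B6ob mice. Cck, the gene of the peptide hormone cholecystokinin, stood at 0.15, 0.07, 0.16, 0.08 and 0.79 in BTBRob, -0.02, 0.11, -0.29, -0.31 and -0.66 in BTBR lean, 1.61, 1.59, 2.10, 1.34 and 0.51 in B6ob and -2.42, -2.61, -2.88, -2.40 and -2.81 in B6 lean mice. The B6 groups were far apart, while the BTBR groups overlapped. Its obesity effect was 0.48 ± 0.19 in BTBR and 4.05 ± 0.19 in B6, a strain difference of -3.57 ± 0.26 (adjusted p = 1.4e-11).

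Gpr50, a melatonin-receptor-related orphan receptor, stood at 0.45, 0.35, 0.18, 0.30 and 0.01 in BTBRob, 0.24, 0.07, -0.02, -0.34 and -0.17 in BTBR lean, 1.33, 1.66, 1.11, 1.77 and 1.39 in B6ob and -1.56, -2.50, -2.68, -2.58 and -2.29 in B6 lean mice. The pattern was that of Cck, with an overlap in BTBR only and a strain difference of -3.47 ± 0.23 (adjusted p = 2.3e-12). Oxtr, the receptor of oxytocin, stood at -0.33, -0.09, 0.01, -0.36 and -0.89 in BTBRob, 0.75, 0.92, 0.19, 0.57 and -0.03 in BTBR lean, 1.03, 1.03, 0.86, 1.17 and 1.33 in B6ob and -1.11, -2.57, -2.20, -2.04 and -2.47 in B6 lean mice. It fell in BTBR (-0.81 ± 0.30) and rose in B6 (3.16 ± 0.30), and the BTBR groups overlapped through ob mouse 8 and lean mouse 33 (adjusted p of the strain difference 6.7e-08). The acid-stable lipase gene Lipf (gastric lipase) differed by -3.42 ± 0.37 after a rise in both strains, of 1.33 ± 0.26 in BTBR and 4.76 ± 0.26 in B6. Plppr4, of the lipid phosphatase-related family, differed by -3.28 ± 0.25, and Gys2, the liver form of glycogen synthase, by -3.39 ± 0.47 with a fall in BTBR (-1.21 ± 0.33) and a rise in B6 (2.18 ± 0.33).

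Mest, an imprinted gene known to track fat mass expansion in mice, had means over 3 probes of 0.15, -0.19, 0.38, -0.04 and -0.96 in BTBRob, -0.74, -0.30, -0.55, -0.46 and -1.0 in BTBR lean, 0.72, 0.68, 0.86, 0.75 and 0.79 in B6ob and -2.0, -2.49, -2.37, -2.03 and -2.48 in B6 lean mice. Only the B6 groups stood apart. The strain difference was -2.56 ± 0.29 (adjusted p = 1.9e-07), but its probes disagreed, from -3.92 to 0.12. Pla2g2e, a secreted phospholipase, fell in BTBR (-1.36 ± 0.22) and rose in B6 (1.64 ± 0.22), with no overlap of ob and lean mice in either strain and a strain difference of -3.0 ± 0.31. All of these were called lower in BTBR without the lean arrays with testis transcripts too, with Cck at -3.93, Gpr50 at -3.74, Oxtr at -4.78 and Mest at -2.86.

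**Figure D3:**
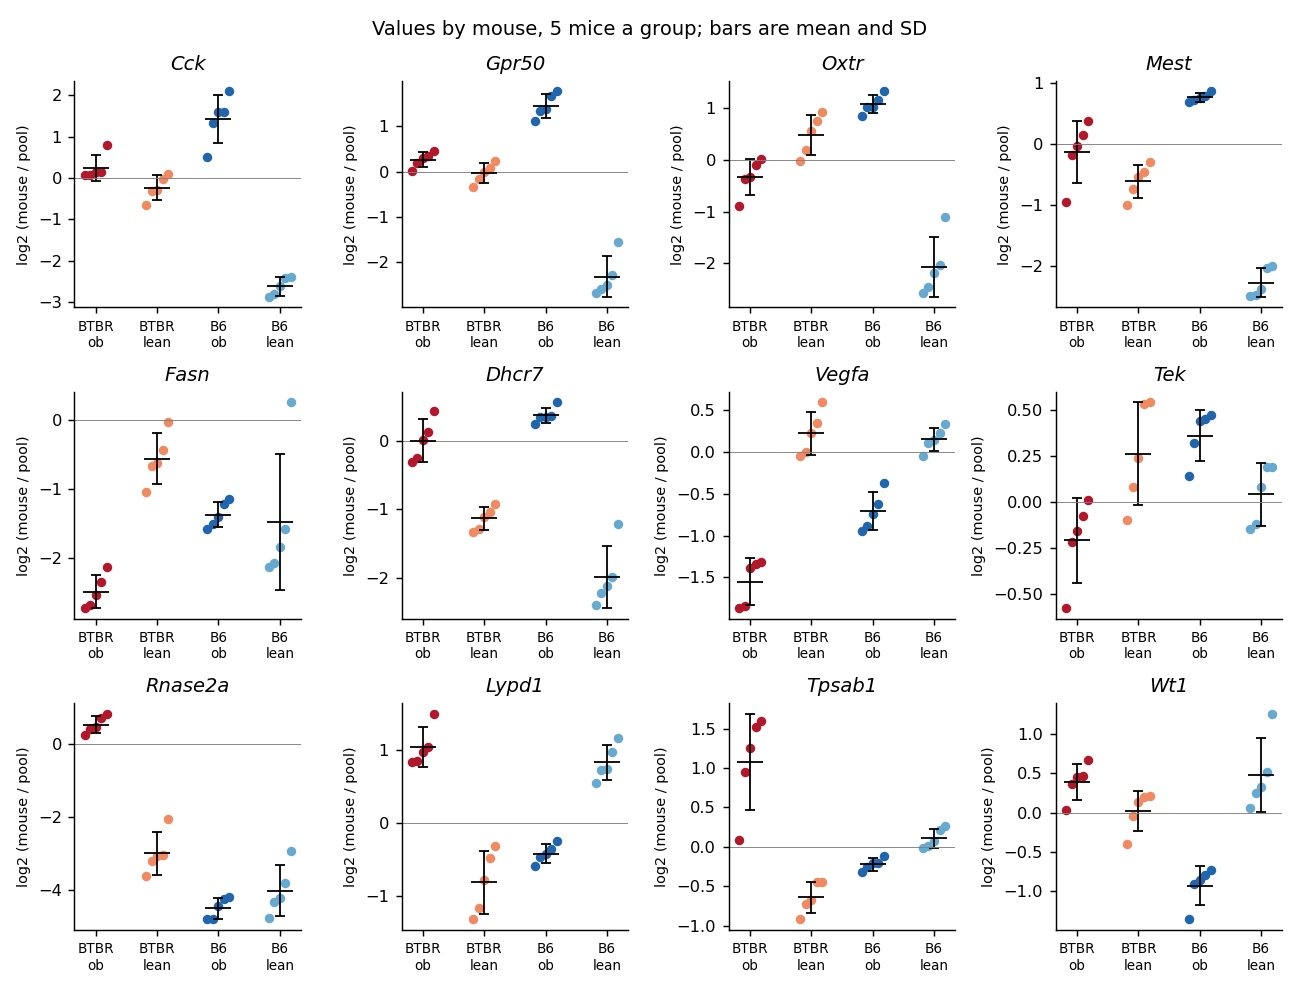
Log2 ratio (mouse / pool) of 12 genes in the 20 adipose arrays at 10 weeks, 1 point a mouse sorted by value within BTBR ob, BTBR lean, B6 ob and B6 lean, with the mean and SD in black. Levels of the strains cannot be set against each other because each has its own pool: compare ob with lean within a strain, where Cck and Gpr50 separate in B6 only, Rnase2a in BTBR only, Vegfa in both strains, and Lypd1 separates in opposite directions.

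Several genes of cholesterol synthesis responded less to obesity in BTBR than in B6 fat. Of 17 cholesterol synthesis genes measured, 6 were lower in BTBR and 0 higher, with a median strain difference of -0.48 beside 0.00 over all genes; 6 had risen and 1 fallen in BTBR, against 14 risen and 1 fallen in B6. Dhcr7, the last enzyme of the pathway, stood at 0.02, -0.30, -0.25, 0.13 and 0.45 in BTBRob, -1.28, -1.11, -1.03, -0.92 and -1.33 in BTBR lean, 0.35, 0.37, 0.57, 0.35 and 0.26 in B6ob and -2.23, -2.13, -2.40, -1.21 and -1.99 in B6 lean mice. It rose in both strains without overlap, by 1.15 ± 0.20 in BTBR and 2.37 ± 0.20 in B6, a strain difference of -1.23 ± 0.28 (adjusted p = 0.0031). The others were Insig1, the sterol-regulated anchor of the pathway's activator (-1.29 ± 0.37), the sterol dehydrogenase gene Nsdhl (-1.06 ± 0.28), Hmgcs1, which feeds the pathway (-0.99 ± 0.22), Sc5d (-0.95) and Ebp (-0.47). Without the lean arrays with testis transcripts the count stayed at 6, with the covariates it was 5.

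The promoters of this group are shown because 6 of its 17 measured members were lower in BTBR and 0 higher. Sterol genes are known to be driven by SREBP with NF-Y, which binds CCAAT boxes. The counts below cover all members matched, called or not. Of the 17 genes, 14 matched RefSeq promoters of GRCm38.p6, and all 14 held a CCAAT box, searched on both strands as ATTGG, in the 250 bases before at least 1 of their starts, as did 38.9% of the 15799 array genes matched (37.5% of all 27025 genes). The sterol element TCACNCCAC, searched on both strands, was found in 1 of the 14 (7.14%) and in 1.22% of array genes. Below, 250 bases before the start of Hmgcs1 (chr13:119690101-119690350, plus strand), Nsdhl (chrX:72918271-72918520, plus strand) and Insig1 (chr5:28071162-28071411, plus strand) are given 5′ to 3′ with CCAAT boxes of either strand and, in Hmgcs1, the sterol element in capitals; the 2 motifs share no bases there. A match is a description of letters, not a site.
Hmgcs1: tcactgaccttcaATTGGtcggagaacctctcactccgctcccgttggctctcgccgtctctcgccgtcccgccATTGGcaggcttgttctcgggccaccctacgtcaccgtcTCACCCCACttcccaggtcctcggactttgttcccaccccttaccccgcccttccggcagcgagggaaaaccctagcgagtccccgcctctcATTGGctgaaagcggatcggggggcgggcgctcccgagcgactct
Nsdhl: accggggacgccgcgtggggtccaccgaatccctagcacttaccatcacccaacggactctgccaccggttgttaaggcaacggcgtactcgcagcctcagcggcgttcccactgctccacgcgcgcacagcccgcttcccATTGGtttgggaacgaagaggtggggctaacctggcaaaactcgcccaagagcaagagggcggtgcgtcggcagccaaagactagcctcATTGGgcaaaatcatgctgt
Insig1: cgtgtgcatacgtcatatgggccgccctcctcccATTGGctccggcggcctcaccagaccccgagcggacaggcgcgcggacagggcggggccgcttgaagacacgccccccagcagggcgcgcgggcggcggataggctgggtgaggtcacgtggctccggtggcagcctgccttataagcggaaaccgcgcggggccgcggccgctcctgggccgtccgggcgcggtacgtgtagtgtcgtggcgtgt

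For fatty acid and triglyceride synthesis 4 of 24 genes were lower and 2 higher in BTBR, beside 6.01% and 6.91% of all genes. The median was -0.39. Fasn, fatty acid synthase, stood at -2.34, -2.67, -2.13, -2.53 and -2.72 in BTBRob, -1.04, -0.43, -0.62, -0.03 and -0.67 in BTBR lean, -1.5, -1.57, -1.40, -1.15 and -1.22 in B6ob and -2.06, -2.13, -1.58, 0.25 and -1.83 in B6 lean mice. The BTBR groups did not overlap, and the B6 groups did through lean mouse 24. Fasn fell in BTBR (-1.92 ± 0.28), its B6 effect was 0.10 ± 0.28, and the strain difference was -2.02 ± 0.39 (adjusted p = 0.00054). The desaturase gene Scd2 (strain difference -1.48 ± 0.40) and Dgat2, which makes triglyceride (strain difference -1.44 ± 0.20), rose in B6 and did not pass in BTBR, and the desaturase gene Fads1 was higher in BTBR (1.05 ± 0.18) after a fall in B6. Without B6 lean mouse 24, 9 members were lower, and without the lean arrays with testis transcripts 7. With the covariates the balance turned, to 4 higher and 3 lower with a median of -0.23. The higher count was 1 in place of 2 without any 1 of BTBRob mice 4 and 5, BTBR lean mice 32 and 33, B6ob mice 1751 and 1822 and B6 lean mice 20, 23 and 48.

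Pnpla2, the main triglyceride lipase, was higher in BTBR (0.93 ± 0.19, adjusted p = 0.00073) after a fall in B6 (-1.20 ± 0.13); without the lean arrays with testis transcripts it did not pass (0.44, adjusted p = 0.22). The droplet gene Plin5 was higher in BTBR (0.90 ± 0.21); without those arrays its value was 0.79 and did not pass (adjusted p = 0.084). Of 40 oxidative phosphorylation genes 32 fell in BTBR and 22 fell and 2 rose in B6, and 0 differed between the strains by limma, with 5 at an unadjusted p under 0.05. Without B6 lean mouse 24, 6 were lower in BTBR, without the lean arrays with testis transcripts 7, and with the covariates 1 was higher. Leaving out BTBRob mouse 5, BTBR lean mouse 26, B6ob mouse 9 or B6 lean mouse 20 made 1 lower, and leaving out BTBR lean mouse 33 made 2 lower.

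Brown fat genes moved in both directions, 3 higher and 5 lower of 18, beside 6.91% and 6.01% of all genes. Ucp1, the uncoupling protein of brown fat, stood at -2.54, -2.21, -2.78, -1.79 and -1.53 in BTBRob, -3.86, -4.20, -3.79, -3.76 and -4.22 in BTBR lean, -2.51, -2.58, -2.29, -2.53 and -2.29 in B6ob and -1.76, 1.56, -2.46, 3.11 and -2.34 in B6 lean mice. In B6 lean mice, mice 22 and 24 stood far above the rest. The strain difference was 3.86 ± 1.01 (adjusted p = 0.0088) and lay between 2.58 and 4.38 over the alternatives, all past the threshold. No alternative left out mice 22 and 24 together, so this range does not show the value without both. The fall in B6 thus rests largely on these mice, as the other B6 lean mice lay near the B6ob mice. Otop1, a proton channel of brown fat (-1.67 ± 0.37), Pm20d1, a secreted enzyme that makes N-acyl amino acids (-1.42 ± 0.21), and Ucp3 (-1.15 ± 0.24) were lower in BTBR.

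Of 22 adipokine genes, 7 were lower and 2 higher in BTBR, beside 6.01% and 6.91% of all genes. Saa3, an acute phase apolipoprotein, rose in both strains (1.65 ± 0.40 in BTBR and 3.63 ± 0.40 in B6) and differed by -1.98 ± 0.57 (adjusted p = 0.017), which ended without the lean arrays with testis transcripts (-1.54, adjusted p = 0.21) and with the 10-week arrays alone (adjusted p = 0.059). Apln, the gene of the peptide apelin, stood at -2.52, -2.0, -2.51, -2.53 and -2.73 in BTBRob, -0.49, -0.53, -0.09, -0.73 and -1.32 in BTBR lean, -0.77, -0.55, -0.77, -0.24 and -0.08 in B6ob and -0.03, -0.29, -0.82, -1.24 and -0.40 in B6 lean mice. Only BTBR separated, with a fall of 1.83 on the log2 scale and a strain difference of -1.90 ± 0.41 (adjusted p = 0.0016). The growth factor gene Igf1 also fell in BTBR alone (-0.58 ± 0.12), a strain difference of -0.86 ± 0.16. The higher count was 1 without any 1 of BTBRob mice 5, 8, 9 and 10, BTBR lean mouse 32, B6ob mice 9 and 1752 and B6 lean mouse 23. It was 4 without BTBRob mouse 4, BTBR lean mouse 26 or 30 or B6 lean mouse 24.

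Several transcripts of vessel lining cells were lower in BTBR. Of 18 endothelial genes 9 were lower in BTBR by the strain difference and 0 higher, with a median of -0.47; 13 had fallen in BTBR, while 5 had risen and 3 fallen in B6. Tek, the receptor of the angiopoietins, stood at 0.01, -0.22, -0.08, -0.16 and -0.58 in BTBRob, 0.54, 0.53, 0.08, 0.24 and -0.10 in BTBR lean, 0.14, 0.32, 0.47, 0.44 and 0.45 in B6ob and 0.19, 0.08, -0.12, -0.15 and 0.19 in B6 lean mice. The groups overlapped in both strains, and the strain difference was -0.79 ± 0.18 (adjusted p = 0.0022). The adhesion molecule gene Icam2 (-0.87 ± 0.20), the fenestral diaphragm gene Plvap (-0.81 ± 0.20) and Egfl7 (-0.72 ± 0.16) followed. Vegfa, the main vessel growth factor, stood at -1.87, -1.39, -1.32, -1.34 and -1.84 in BTBRob, 0.59, 0.34, 0.23, 0.00 and -0.05 in BTBR lean, -0.74, -0.95, -0.89, -0.62 and -0.37 in B6ob and 0.33, 0.14, 0.23, -0.05 and 0.11 in B6 lean mice. It fell in both strains without overlap, by 1.77 in BTBR and 0.86 in B6 on the log2 scale, a strain difference of -0.91 ± 0.19 (adjusted p = 0.0014). The mean level of the endothelial list ran from -0.62 to -0.23 in BTBRob and from -0.24 to 0.27 in BTBR lean mice, and from -0.11 to 0.14 in B6ob and -0.17 to 0.18 in B6 lean mice. Without the lean arrays with testis transcripts 7 members were lower, and with the covariates 7.

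Of 33 extracellular matrix genes 25 rose in BTBR and 19 in B6, beside 22.7% and 23.4% of all genes. By the strain difference 8 were higher and 5 lower in BTBR, beside 6.91% and 6.01% of all genes. Fibrillar collagen Col1a1 was higher (1.15 ± 0.18, adjusted p = 5.1e-05), as was Ccn2, a matricellular growth factor (1.33 ± 0.29; 1.17, adjusted p = 0.067, without the lean arrays with testis transcripts). The basement membrane collagens Col15a1 (-1.33 ± 0.16) and Col4a1 (-0.92 ± 0.18) were lower. Col15a1 fell in BTBR (-0.66 ± 0.11) and rose in B6 (0.66 ± 0.11) without overlap in either strain. The lower count was 3 without BTBRob mouse 8, BTBR lean mouse 31 or B6 lean mouse 24. With the covariates 5 were higher and 6 lower, and without the lean arrays with testis transcripts 6 and 3. Of 20 fibroblast and adipose progenitor genes 3 were higher and 1 lower in BTBR, beside 6.91% and 6.01% of all genes. Without the lean arrays with testis transcripts 0 were higher and 0 lower, and with the covariates 2 and 2. Pdgfra, a marker of adipose progenitors, was higher by 0.78 ± 0.16, but not without those arrays (0.51, adjusted p = 0.11). Cd34, of the same list, was lower (-0.48 ± 0.14, adjusted p = 0.025), which also ended without them (-0.47, adjusted p = 0.11).

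Genes of the mesothelium, the lining of visceral fat, were higher in BTBR in 5 of 14 cases and lower in 0, with a median of 0.99; 2 had risen and 1 fallen in BTBR, against 9 fallen in B6. Wt1, a transcription factor of mesothelial cells, stood at 0.46, 0.36, 0.67, 0.45 and 0.03 in BTBRob, 0.21, 0.20, 0.13, -0.40 and -0.04 in BTBR lean, -0.91, -1.36, -0.86, -0.80 and -0.73 in B6ob and 0.25, 1.26, 0.52, 0.06 and 0.32 in B6 lean mice. Only B6 separated, with a strain difference of 1.78 ± 0.22 (adjusted p = 7.5e-07). The keratin gene Krt19 was higher by 1.24 ± 0.29. The list's mean level was -0.16 to 0.42 in BTBRob and -0.24 to 0.44 in BTBR lean mice, against -0.74 to -0.26 in B6ob and 0.02 to 0.60 in B6 lean mice. Without the lean arrays with testis transcripts 2 members were higher, and with the covariates 5.

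Macrophage transcripts rose in both strains. Of 26 macrophage genes 23 rose in BTBR and 23 in B6, and by the strain difference 4 were higher and 1 lower in BTBR. That higher count was 2 without any 1 of BTBRob mouse 10, BTBR lean mice 32 and 33, B6ob mice 1822 and 1823 and B6 lean mouse 22, and 8 without BTBR lean mouse 26. With the covariates 2 were higher and 5 lower, and without the lean arrays with testis transcripts 2 and 0. Cd14, the lipopolysaccharide co-receptor, was higher (1.82 ± 0.34, adjusted p = 0.00038), as was the scavenger receptor gene Msr1 (1.05 ± 0.23); Aif1, a macrophage actin-binding protein, was lower (-1.75 ± 0.50), which ended without the lean arrays with testis transcripts (-1.02, adjusted p = 0.11). The macrophages known to surround dying adipocytes were followed with 20 genes, of which 17 rose in BTBR and 16 in B6, and 6 were higher and 2 lower in BTBR. Trem2, the lipid receptor of these cells, stood at 0.69, 0.91, 0.94, 0.93 and 1.07 in BTBRob, -0.95, -0.66, -0.86, -0.97 and -1.29 in BTBR lean, 1.58, 1.42, 1.26, 1.23 and 1.34 in B6ob and -2.02, -1.13, -2.29, -2.33 and -1.91 in B6 lean mice. It rose without overlap in both strains, less in BTBR (1.85 ± 0.18) than in B6 (3.30 ± 0.18), a strain difference of -1.45 ± 0.25 (adjusted p = 0.00014). Itgax, the gene of CD11c, differed the other way, rising by 3.94 ± 0.17 in BTBR and 2.88 ± 0.17 in B6 (strain difference 1.07 ± 0.24), and so did the protease gene Ctsk (1.10 ± 0.23); both ended when the arrays were scaled to 1 spread (0.59, adjusted p = 0.34, and 0.72, adjusted p = 0.061). Of 23 lysosome genes 8 were higher and 1 lower in BTBR, 5 higher without BTBRob mouse 10 and 2 without the lean arrays with testis transcripts, with Ctsa, a carboxypeptidase, at 0.73 ± 0.12.

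Mast cell transcripts were higher in BTBR: 7 of 12 genes and 0 lower, with a median of 1.01; 8 had risen and 1 fallen in BTBR, against 5 fallen in B6. Tpsab1, a tryptase, stood at 0.95, 0.09, 1.52, 1.26 and 1.60 in BTBRob, -0.67, -0.44, -0.45, -0.92 and -0.73 in BTBR lean, -0.32, -0.21, -0.20, -0.11 and -0.26 in B6ob and 0.07, 0.26, -0.02, 0.01 and 0.22 in B6 lean mice. The ob mice lay above the lean mice in BTBR and below them in B6, without overlap in either strain, and the B6 effect (-0.33 ± 0.18) did not pass. The strain difference was 2.06 ± 0.25 (adjusted p = 7.7e-07). The mast cell proteases Cma1 (1.37 ± 0.24), Cpa3 (1.35 ± 0.28) and Mcpt4 (1.14 ± 0.22) followed, while the receptor gene Kit (-0.39) did not pass. The list's mean level was -0.09 to 0.86 in BTBRob and -0.23 to -0.02 in BTBR lean mice, and -0.20 to 0.09 in B6ob and 0.20 to 0.38 in B6 lean mice. Without the lean arrays with testis transcripts 4 were higher and with the covariates 6. Sequences of the tryptases and chymases are alike, and the probes may not tell members apart.

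Of 28 chemokine and cytokine genes 4 were higher in BTBR and 0 lower, beside 6.91% and 6.01% of all genes. Ccl11, the eosinophil attractant eotaxin, was higher by 1.02 ± 0.20 (adjusted p = 0.00071). The covariates gave 3 higher and 3 lower members, and leaving out the lean arrays with testis transcripts 2 and 0. Leaving out B6 lean mouse 22 made 2 lower, and leaving out B6ob mouse 1823 made 1 lower. Cxcl2, a neutrophil attractant, was higher by 2.22 ± 0.72 (adjusted p = 0.037), a call that ended under 13 alternatives, which include leaving out single mice of each of the 4 groups. Of 13 neutrophil and eosinophil genes 1 was higher and 1 lower in BTBR, beside 6.91% and 6.01% of all genes, with a median of 0.21. The neutrophil protein gene S100a8 was lower (-2.05 ± 0.55, adjusted p = 0.011) and Mmp9 higher (1.76 ± 0.36, adjusted p = 0.00088). Slpi, an inhibitor of neutrophil elastase, was higher (2.24 ± 0.36, adjusted p = 4.6e-05). Of 20 T and NK cell genes, 0 differed by limma and 3 had an unadjusted p under 0.05; leaving out BTBR lean mouse 26 made 1 higher, and leaving out BTBR lean mouse 30 or 33 made 1 lower, as the covariates did for 2.

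Genes of the immediate early response, which are switched on within minutes of a stimulus or of handling, rose in 4 and fell in 1 of 20 cases in BTBR, and fell in 13 in B6. By the strain difference 8 were higher in BTBR and 0 lower, but the count ranged from 3 to 13 on leaving out 1 mouse. It was 3 without BTBRob mouse 9, BTBR lean mouse 32 or B6 lean mouse 22 or 23, 13 without B6 lean mouse 24, 4 without BTBRob mouse 10 or B6ob mouse 1752, 1822 or 1823, 5 without BTBRob mouse 5, BTBR lean mouse 30 or 33 or B6ob mouse 9, and 2 without the lean arrays with testis transcripts or with the covariates. Fosb (2.58 ± 0.88, adjusted p = 0.048), Egr2 (2.27 ± 0.74) and Nr4a1 (2.07 ± 0.70) ended under 18, 16 and 18 alternatives, again with single mice of all 4 groups among them. Ptgs2, the inducible cyclooxygenase, stood at -1.56, -1.42, -1.43, 1.02 and 3.74 in BTBRob, -1.89, -1.81, -2.45, -2.69 and -2.55 in BTBR lean, -3.22, -3.50, -3.21, -2.76 and -2.71 in B6ob and -1.26, 1.85, -1.35, 2.78 and -2.31 in B6 lean mice. BTBRob mice 9 and 10 and B6 lean mice 22 and 24 were high. Its strain difference of 5.37 ± 1.29 (adjusted p = 0.0045) had no overlap of ob and lean mice in either strain, and ended without the lean arrays with testis transcripts (4.77, adjusted p = 0.092). Of 16 circadian clock genes 4 were higher in BTBR and 0 lower, beside 6.91% and 6.01% of all genes. The higher count was 2 without BTBRob mouse 8, 9 or 10, BTBR lean mouse 32, B6ob mouse 1822 or B6 lean mouse 22. It was 7 without B6 lean mouse 24. Bhlhe41 was higher by 0.86 ± 0.21, but not without the lean arrays with testis transcripts (0.56, adjusted p = 0.16). Per2 was higher by 1.05 ± 0.35 (adjusted p = 0.044), which ended under 15 alternatives, single mice of all 4 groups among them. The hour of dissection is not given in the sources used here.

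Some of the largest differences lay outside these groups. Rnase2a, an eosinophil-type ribonuclease, stood at 0.72, 0.48, 0.84, 0.24 and 0.43 in BTBRob, -3.03, -2.04, -3.62, -3.07 and -3.20 in BTBR lean, -4.80, -4.42, -4.80, -4.19 and -4.24 in B6ob and -3.80, -4.77, -4.33, -2.93 and -4.21 in B6 lean mice. It rose in BTBR without overlap (3.53 ± 0.37) while the B6 groups overlapped, a strain difference of 4.02 ± 0.52 (adjusted p = 1.9e-06). Lypd1, a prototoxin-like surface protein, stood at 0.83, 0.85, 1.5, 0.97 and 1.04 in BTBRob, -0.48, -0.32, -0.78, -1.16 and -1.32 in BTBR lean, -0.46, -0.59, -0.25, -0.35 and -0.42 in B6ob and 0.74, 0.73, 0.97, 0.55 and 1.16 in B6 lean mice. It rose in BTBR (1.85 ± 0.15) and fell in B6 (-1.24 ± 0.15), with no overlap in either strain (strain difference 3.10 ± 0.22, adjusted p = 5.2e-12). The monooxygenase-like gene Moxd1 did the same by 2.02 ± 0.35. Sult2a1, a hydroxysteroid sulfotransferase, was higher by 2.63 ± 0.72, and nearly as much, but not past the threshold, without the lean arrays with testis transcripts (2.58, adjusted p = 0.13). Cyp2f2, a cytochrome P450, fell less in BTBR (-2.04 ± 0.47) than in B6 (-4.63 ± 0.47).

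In the other direction, the major urinary protein genes, best known from liver, were lower in BTBR: Mup2 had a strain difference of -7.86 ± 1.20 and Mup4 of -6.30 ± 1.05. Mup2 stood at -4.65, -4.14, -4.82, -4.17 and -4.81 in BTBRob, -2.21, 0.01, 1.97, 2.54 and 0.21 in BTBR lean, 0.64, 0.54, -0.40, 0.47 and 1.87 in B6ob and -2.32, -2.96, -4.62, 2.03 and -3.19 in B6 lean mice. The BTBR groups did not overlap, and the B6 groups did through lean mouse 24. These genes are near-identical copies, so that the probes may not tell them apart. Serpina3b, a serine protease inhibitor, fell in BTBR alone (strain difference -2.21 ± 0.37). Rbm28, an RNA-binding nucleolar protein, fell in BTBR (-1.76 ± 0.14) and rose in B6 (1.48 ± 0.14) without overlap, for a strain difference of -3.23 ± 0.20 (adjusted p = 6.6e-13). It is the neighbour of Lep in the annotation. Of the 50 measured genes nearest Lep 8 (16%) differed between the strains at 10 weeks, against 12.9% of all genes, and 4 (8%) at 4 weeks, against 1.25%. What DNA around Lep the groups carry was not measured here. Pvalb, a calcium buffer, had a strain difference of -1.81 ± 0.16 over 2 probes that disagreed, from -3.49 to -0.12.

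Cell division genes rose in both strains. Of 38 mitosis and G2/M genes 23 rose in BTBR and 33 in B6, with medians of 0.97 and 1.20, and 0 differed between the strains by limma, nor at an unadjusted p under 0.05 (0 genes). Of 32 DNA replication genes 26 rose in BTBR and 28 in B6, 1 was higher and 1 lower by the strain difference, and the higher one, the licensing factor gene Cdt1 (0.78 ± 0.22, adjusted p = 0.015), did not pass when arrays were scaled to 1 spread (0.54, adjusted p = 0.1). The lower one, the cyclin gene Ccne1, did not pass without the lean arrays with testis transcripts or with the covariates. It was also lost without BTBRob mouse 8, BTBR lean mouse 30 or 32, B6ob mouse 1751, 1822 or 1823 or B6 lean mouse 20, 23 or 48.

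**Figure D4:**
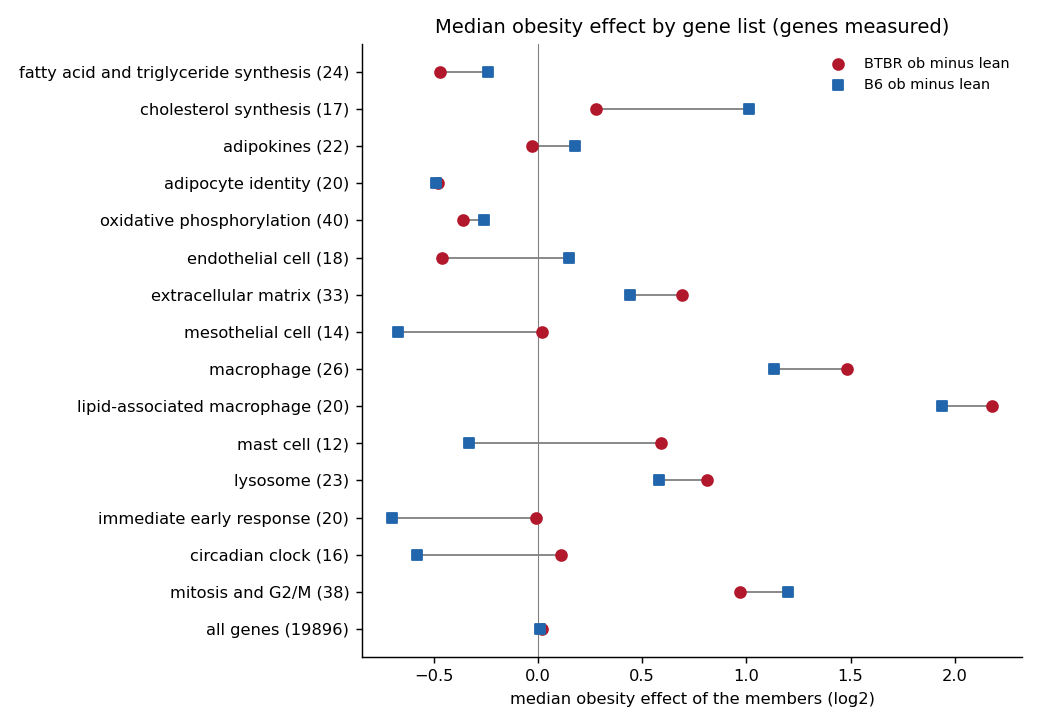
Median obesity effect (log2, ob minus lean) of the measured members of 15 gene lists and of all genes, with a circle for BTBR and a square for B6 joined by a line. The medians are apart for the cholesterol synthesis (0.28 in BTBR and 1.01 in B6), endothelial (-0.46 and 0.15), mesothelial (0.02 and -0.67) and mast cell (0.59 and -0.33) lists, and close for adipocyte identity (-0.48 and -0.49).

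At 4 weeks the same comparison, in other mice, called 94 genes higher (0.472%) and 154 lower (0.774%) in BTBR. Strain differences at 10 and 4 weeks correlated across genes at r = 0.406, again a description. The test of 10 weeks against 4 weeks called 278 genes higher (1.4%) and 243 lower (1.22%) at 10 weeks. Cck was -3.57 ± 0.26 at 10 weeks and -0.10 ± 0.26 at 4 weeks, Gpr50 -3.47 ± 0.23 and 0.19 ± 0.23, and both passed that test (adjusted p = 7.6e-07 and 1.8e-08). Fasn was -2.02 ± 0.39 at 10 weeks and 0.35 ± 0.39 at 4 weeks (adjusted p = 0.015). Rnase2a changed sign, with 4.02 ± 0.52 at 10 weeks and -2.04 ± 0.52 at 4 weeks (adjusted p = 4.3e-06), as did Serpina3b with -2.21 ± 0.37 and 1.96 ± 0.37 (adjusted p = 8.1e-06). For Rbm28 the values were -3.23 ± 0.20 and -2.42 ± 0.20, which did not differ past the threshold (adjusted p = 0.14), nor did those of Oxtr (-3.97 ± 0.43 and -2.18 ± 0.43, adjusted p = 0.12). The mesothelial list had 4 members higher at 10 than at 4 weeks, the matrix list 7 higher and 3 lower, and the endothelial list 3 lower.

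**Figure D5:**
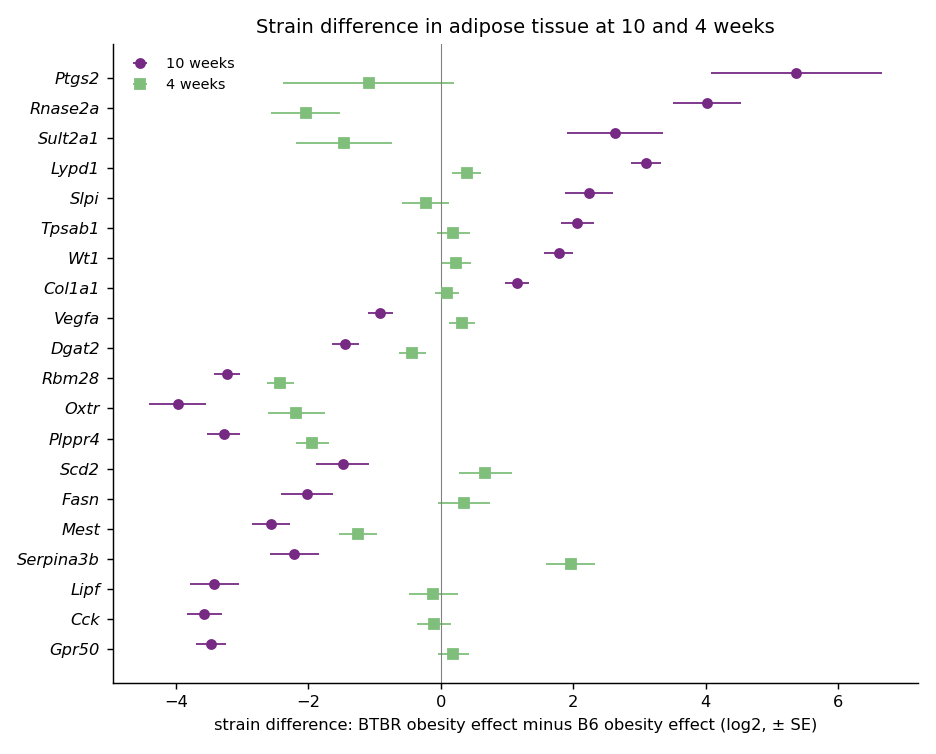
Strain difference (BTBR obesity effect minus B6 obesity effect, log2) of 20 genes in adipose tissue, with circles for 10 weeks above squares for 4 weeks and bars for the SE. Cck, Gpr50 and Lipf lie near 0 at 4 weeks and below -3 at 10 weeks, Rnase2a and Serpina3b change sign, and Rbm28 lies below -2 at both ages.

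Adipose tissue was set against liver of the same mice, which 18 mice allowed (3 BTBRob, 5 BTBR lean, 5 B6ob and 5 B6 lean). The strain difference was higher in adipose tissue than in liver for 1371 genes (6.89%) and lower for 1087 (5.46%). Cck differed between the tissues by -3.60 ± 0.33, Oxtr by -3.71 ± 0.36 and Rnase2a by 4.56 ± 0.51 (adjusted p = 6.8e-06, 1.3e-05 and 4.4e-05). For Fasn the tissues did not differ past the threshold (1.28 ± 0.76, adjusted p = 0.32). Its strain difference in liver was -3.31 ± 0.30 (adjusted p = 1e-09). This and the liver values below were fitted on all liver arrays, not only on those of the 18 mice. The adipose minus liver value was higher for 8 and lower for 1 of 24 fatty acid and triglyceride synthesis genes. Of 17 cholesterol synthesis genes it was higher for 2 and lower for 0. A higher value here can come from a lower strain difference in liver. In liver too, Dhcr7, Nsdhl, Hmgcs1 and Insig1 were lower in BTBR. The liver values were -1.58 ± 0.25 for Dhcr7, -1.51 ± 0.37 for Hmgcs1 and -1.28 ± 0.24 for Insig1. Of 18 endothelial genes 9 were lower in adipose tissue than in liver and 0 higher, with a median of -0.56 beside -0.02 over all genes. The largest values by the rule for named genes included L1td1 (4.58 ± 0.31) and Nnmt (-4.01 ± 0.30), whose adipose strain differences of -0.36 ± 0.19 and -0.17 ± 0.15 did not pass (with array weights L1td1 did, at -0.60, adjusted p = 0.0037).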

How the data were processed

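Male BTBR and B6 mice, lean or ob, were profiled on 2-colour arrays (240 in the series; 40 adipose arrays, 8 groups by strain, state and age, are in the fit). Per the labels' protocols RNA of gonadal fat pads was converted to cRNA and labelled with Cy3 or Cy5 beside a pool of its strain and tissue. The authors deposited log10 ratios, bounded at 2.0 on either side; how they corrected background and normalized is not stated in the labels. A bound compresses the differences of the genes it touches. Depth has no meaning here, and the number of arrays limits the precision.

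Values were rescaled to log2. Of 39556 probes 23283 (58.9%) had 1 gene symbol, and the mean of a gene's probes gave 19896 genes (2869 with several probes). limma 3.58.1 (R 4.3.3, lmFit and eBayes) fitted all 40 adipose arrays with 1 mean a group, and the age contrast used the same fit. The adipose minus liver contrast used per-mouse differences of 18 mice. Strain differences in liver alone came from a fit of all liver arrays. Tables were made with pandas 2.3.3 and numpy 2.4.6 in Python 3.11.15, and plots with matplotlib 3.10.9. Symbols came from the platform annotation, with 6594 probes updated from a synonym. Tested on simulated data of the strain difference over 19896 genes, the fit recovered 63% of 1.5-fold and 82% of 2-fold changes, with 5 false calls (3.33%). The simulated noise was normal, independent between genes and of 1 SD a gene in all groups. It held no shared shifts such as those of testis, epididymis or B cell transcripts in the lean arrays. These rates therefore need not hold for the real arrays.

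The members and lists were chosen with earlier results of these data known. Named genes were Lep, Adipoq, Plin1, Fabp4, Cfd and Pparg, and the 12 highest and 12 lowest strain differences. The highest and lowest were taken among genes past the threshold whose ob and lean mice did not overlap in at least 1 strain. Non-overlap in 1 strain was thus fixed by the choice of those genes. Also named were the 6 largest of each opposite pattern, up to 4 members a list, and the 4 largest each way of the age and tissue contrasts. The text describes a part of these; Kit, Sc5d and Ebp lie outside the rule and were named after their values were seen. No arrays held identical values. Alternatives changed the arrays fitted, centring, scaling, probe summary, weights, empirical Bayes, filters, the threshold and, in turn, each of the 20 arrays at 10 weeks. The planned scaling of arrays gave no values on data centred near 0, so limma's scaling to 1 median absolute value was used.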

Additional observations from a re-analysis of the deposited data

Results flagged for a closer look

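Of 308 groups of 5 mice, 4 for each of 77 genes, 23 held a mouse whose gap to its nearest neighbour passed Dixon's critical value, where chance alone gives about 1 in 20 groups. Values are log2 ratios of mouse over pool. In B6 lean mouse 24 these were Gys2 at -0.03, Pm20d1 at 0.20, Ucp3 at 0.08, Fasn at 0.25, Scd2 at -0.45, Nsdhl at -0.42, Plin5 at 0.27 and Mup4 at 2.23. In BTBRob mouse 10 these were Cck at 0.79, Egfl7 at -0.90, Msr1 at 1.82, Ccl11 at 1.16 and Cdt1 at 1.16. In BTBRob mouse 8 these were Otop1 at -0.94 and Pvalb at 0.51. In B6 lean mouse 20 these were Igf1 at 0.05 and Sult2a1 at -1.52. In B6 lean mouse 22 these were Saa3 at -0.49 and Plvap at 0.64. In B6ob mouse 1751 these were Wt1 at -1.36 and Pvalb at 0.99. In B6ob mouse 9 this was Bhlhe41 at 0.51. In BTBR lean mouse 30 this was Pvalb at 0.10.

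The strain difference at 10 weeks minus that at 4 weeks passed the test for some of the named genes (log2, adjusted p under 0.05 by limma). It was lower for Cck -3.47, Gpr50 -3.66, Lipf -3.31, Plppr4 -1.34, Pla2g2e -2.93, Ucp3 -1.28, Fasn -2.37 and Scd2 -2.15. Also lower for Dgat2 -1.01, Igf1 -1.16, Saa3 -2.84, Vegfa -1.23, Col15a1 -1.14, Col4a1 -0.93, Serpina3b -4.18 and Pvalb -1.42. It was higher for Col1a1 1.06, Ccn2 1.69, Wt1 1.56, Krt19 1.87, Lypd1 2.70, Ctsk 1.31, Tpsab1 1.86 and Ccl11 1.31. Also higher for Slpi 2.47, Ctsa 0.85, Ptgs2 6.46, Rnase2a 6.05 and Sult2a1 4.08.

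The strain difference in adipose tissue minus that in liver of the same mice passed the test for some of them (log2, adjusted p under 0.05 by limma). It was lower for Cck -3.60, Gpr50 -3.47, Lipf -3.66, Plppr4 -3.45, Oxtr -3.71, Gys2 -3.59, Mest -2.12 and Pla2g2e -2.92. Also lower for Otop1 -1.90, Pm20d1 -1.25, Ucp3 -1.54, Dgat2 -1.10, Apln -1.84, Igf1 -1.15, Saa3 -2.07 and Vegfa -0.90. Also lower for Icam2 -0.86, Plvap -0.93, Tek -0.70, Egfl7 -0.79, Col15a1 -0.76, Col4a1 -1.03, Trem2 -1.19 and Sult2a1 -2.57. Also lower for Serpina3b -1.87, Rbm28 -2.96, Pvalb -1.84 and Nnmt -4.01. It was higher for Cfd 2.32, Fads1 1.55, Col1a1 2.24, Wt1 1.92, Pdgfra 0.55, Lypd1 3.19, Itgax 1.26 and Ctsk 0.89. Also higher for Msr1 0.72, Tpsab1 1.73, Cma1 1.16, Cpa3 1.79, Mcpt4 1.36, Ccl11 1.21, Slpi 1.67 and Ctsa 0.90. Also higher for Ptgs2 4.37, Bhlhe41 1.03, Rnase2a 4.56, Cyp2f2 4.14 and L1td1 4.58.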

How the results depend on the processing

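Call stability was counted for 70 named genes past the threshold, without Nr1h3, Ccne1, Mmp9, Cd34, Sc5d and Ebp. Of these 70, 53 kept the call at an adjusted p of 0.05 under every refit of gene values, and 0 changed sign. The fit of each probe on its own was not among these refits, so disagreeing probes, as in Mest and Pvalb, are not counted. At 0.01, 57 of the 70 passed. At 0.05, 14 lost the call without the lean arrays with testis transcripts, 7 with arrays scaled to 1 spread and 5 with the 10-week arrays alone. For the strain difference, array weights gave 2729 higher and 2416 lower genes, an adjusted p of 0.01 gave 622 and 618, and leaving out those lean arrays gave 740 higher. Then 40.8% of the calls were higher, against 53.5% of all calls reported. For the BTBR effect, testing each probe gave 13939 calls, leaving out the less variable genes 5642 and an adjusted p of 0.01 gave 5816; for the B6 effect the first 2 of these gave 13780 and 5104. For the strain difference at 4 weeks, centred arrays gave 377, array weights 682, the lean arrays left out 454, the covariates 552 and an adjusted p of 0.01 gave 85. For 10 minus 4 weeks, array weights gave 1565, the covariates 839 and 0.01 gave 155, and for adipose minus liver 0.01 gave 1106. Leaving out 1 mouse of 10 weeks gave 1038 to 1749 higher and 966 to 1403 lower genes, 7235 to 9513 for the BTBR effect, 7239 to 8869 for the B6 effect, 226 to 364 at 4 weeks (where only the pooled spread changes, since no 4-week mouse was left out), 403 to 598 for 10 minus 4 weeks and 1543 (without BTBRob mouse 8) to 2956 for adipose minus liver. The cause of these shifts was not tested, beyond fewer arrays or genes and stricter thresholds by construction. No paired analysis was possible because the 10-week adipose groups share fewer than 2 mouse numbers. Probes without a symbol (16273) are not named here.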
